A study of Homo sapiens with 132 samples.

Results

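The MYC and MXD network comprises the transcription factors that act as dimers with MAX. Its 9 genes were taken by symbol from the 65217 gene identifiers counted in every library: MYC (ENSG00000136997) and MYCL as activators, MAX as the common partner, and MXD1, MXD3, MXD4, MXI1, MNT and MGA as the other partners of MAX. All 9 passed the filter on low counts in every cell line. MYC and MYCL bind DNA only when paired with MAX, preferentially at the E-box CACGTG, and raise transcription of genes for ribosome biogenesis, nucleotide and polyamine synthesis and cell cycle entry. The MXD proteins (MXI1 is also called MXD2), MNT and the large scaffold protein MGA compete for MAX and for the same DNA sites, and the MXD proteins and MNT recruit SIN3 and histone deacetylases to repress. MYC mRNA is short-lived and its transcription follows growth factor signaling through the ERK and PI3K pathways, while MXD genes are best known from differentiating and resting cells.

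The data were RNA-seq counts from 4 human gastric cancer cell lines, MKN1, Hs746T, MKN7 and NCI-N87, in 44 conditions of 3 libraries each. MKN1 and Hs746T cells were left untreated or received EGF (5 ng/ml), cetuximab (1 µg/ml, an antibody against EGFR) or both. All 4 lines were left untreated or received trastuzumab (5 µg/ml, an antibody against HER2, the product of ERBB2), afatinib (0.5 µM, an irreversible kinase inhibitor of EGFR, HER2 and HER4) or both, each for 4 h or 24 h. No genetic change was made to any group, all lines were cultured with serum, Hs746T in DMEM and the others in RPMI, and afatinib was compared with untreated cells because no solvent control is among the libraries. All treatments of a line and time point share their 3 untreated libraries, so the comparisons are not independent of each other.

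Library totals ran from 25832557 to 69434151 counts with a median of 50725775. Counts per gene are given as CPM (read counts relative to the TMM-scaled total of the library), and CPM per kb of exon where levels of different genes are compared. ERBB2 was between 10830 and 22090 CPM in NCI-N87, between 3682 and 7332 in MKN7 and at most 182 in MKN1 and 160 in Hs746T, and EGFR was between 63.0 and 707 CPM over all lines. EPCAM was low in Hs746T (16.9 to 39.5 CPM) and in MKN1 (14.9 to 29.7 CPM), and CDH1 was at most 6.04 CPM in both. MKN1 was mixed in its markers, with KRT8 at 7656 to 14310 CPM, KRT19 at 3232 to 5525 CPM and VIM at 158 to 1218 CPM. Hs746T had the lowest KRT19 (18.4 to 47.5 CPM) and KRT8 (271 to 454 CPM) of the 4 lines. Its CLDN4, also an epithelial marker, was 266.5 to 445.5 CPM, above MKN7 (133 to 193 CPM) and MKN1. VIM was 1334 to 2047 CPM and COL1A1 370 to 696 CPM in Hs746T, with PDGFRA at most 0.151 CPM. The leukocyte markers PTPRC and CD3E stayed at or below 0.664 CPM, and CD68 was listed at 0 in every library, as were some genes that every growing cell uses, so its 0 is not read as a level. PECAM1 reached 274 CPM in Hs746T, where the other endothelial markers CDH5 and VWF were at most 0.138 and 0.653 CPM.

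Promoter sequence of the members was read from RefSeq (GRCh38.p14) as 300 bases, from 250 before to 50 after each annotated start site. The table held 13 promoters of 8 members, and MYC had no entry. The E-box CACGTG, which reads the same on both strands, was found in 2 of the 13 promoters, those of MXD4 and MNT, and in 7.26% of all 35116 promoters. The FOXO motif TGTTTAC, searched on both strands, was in 2 of 3 MXI1 promoters and in 3.42% of all promoters. An E2F motif (TTTCCCGC or TTTGGCGC, both strands) was in 1 MGA promoter and in 2.27% of all. Promoters are shown for MXD4 and MXD3, the MXD genes that moved most under treatment, for MXI1 and for MNT. MNT carries the same E-box letters as MXD4. It passed in 0 of 36 comparisons of a treatment with untreated cells, and in 4 with the replicate number as a block. Binding to these letters was not tested. Capitals mark the matched motif (E-box in MXD4 and MNT, FOXO in MXI1), and no searched motif occurred in the MXD3 window.
MXD4 promoter, chr4:2262060-2262359, minus strand: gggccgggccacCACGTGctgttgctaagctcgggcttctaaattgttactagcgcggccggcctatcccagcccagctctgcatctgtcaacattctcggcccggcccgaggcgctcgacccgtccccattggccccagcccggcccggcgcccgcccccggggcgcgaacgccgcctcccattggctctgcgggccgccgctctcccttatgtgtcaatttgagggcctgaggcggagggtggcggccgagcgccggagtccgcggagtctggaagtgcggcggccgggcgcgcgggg
MXD3 promoter, chr5:177312703-177313002, minus strand: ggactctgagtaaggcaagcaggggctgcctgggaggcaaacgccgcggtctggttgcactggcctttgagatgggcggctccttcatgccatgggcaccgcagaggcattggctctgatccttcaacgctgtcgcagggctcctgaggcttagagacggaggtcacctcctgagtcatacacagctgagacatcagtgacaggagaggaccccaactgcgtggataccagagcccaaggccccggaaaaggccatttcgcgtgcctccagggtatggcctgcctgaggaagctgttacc
MXI1 promoter, chr10:110209981-110210280, plus strand: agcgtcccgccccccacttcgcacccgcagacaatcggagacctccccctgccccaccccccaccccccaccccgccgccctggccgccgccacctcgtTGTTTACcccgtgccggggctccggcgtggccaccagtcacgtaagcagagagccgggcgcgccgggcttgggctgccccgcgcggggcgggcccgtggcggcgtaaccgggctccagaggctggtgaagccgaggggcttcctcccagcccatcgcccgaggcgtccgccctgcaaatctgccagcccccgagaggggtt
MNT promoter, chr17:2401011-2401310, minus strand: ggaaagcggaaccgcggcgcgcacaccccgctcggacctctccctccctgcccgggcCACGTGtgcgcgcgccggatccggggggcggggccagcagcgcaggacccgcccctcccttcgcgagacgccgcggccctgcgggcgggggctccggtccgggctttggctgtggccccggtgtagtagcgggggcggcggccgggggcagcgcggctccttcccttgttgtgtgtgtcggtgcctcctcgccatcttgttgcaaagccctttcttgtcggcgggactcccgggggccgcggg
Counted from the annotated start, the E-box begins at position -238 in MXD4 and at -193 in MNT, and the FOXO letters begin at -151 in the MXI1 promoter shown.

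In untreated cells, MYC was most abundant in the 2 lines with high ERBB2. The median of the 6 untreated libraries per line was 495 CPM in MKN7 (365 to 550), 377 CPM in NCI-N87 (323 to 436), 209 CPM in Hs746T (186 to 215) and 35.3 CPM in MKN1 (18.7 to 55.3). The ranges of MKN7 and NCI-N87 overlapped, and those of Hs746T and then MKN1 lay below them without overlap. At 4 h MYC was lower in NCI-N87 than in MKN7 by a log2 difference of -0.39 (SE 0.16, adjusted p = 0.0328), and at 24 h the difference was -0.18 (adjusted p = 0.343, edgeR quasi-likelihood test with Benjamini-Hochberg adjustment). MKN1 was below Hs746T by -2.04 at 4 h (adjusted p = 1.47e-19) and by -3.27 at 24 h (adjusted p = 5.3e-31). In all, 86 of 108 member tests between untreated lines passed an adjusted p of 0.05, against 66.5% of all tests of all genes in these 12 comparisons, and most genes thus differed between lines as well.

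The other members had different orders over the lines. MAX followed MYC at its top, with a median of 181 CPM in MKN7, 81.5 in Hs746T, 69.8 in NCI-N87 and 37.3 in MKN1. It was higher in MKN7 than in MKN1 by 2.19 at 4 h and 2.43 at 24 h on the log2 scale (adjusted p = 6.8e-44 and 2.92e-47). MAX was slightly lower in NCI-N87 than in Hs746T (log2 difference -0.28 at 4 h, adjusted p = 0.000864, and -0.17 at 24 h, adjusted p = 0.0461). MXD4 was higher in the 2 lines with less MYC, with 70.0 CPM in Hs746T and in MKN1, 31.2 in MKN7 and 17.8 in NCI-N87. In MXD4 MKN1 differed from Hs746T by -0.31 at 4 h (adjusted p = 0.0116 in edgeR and 0.0624 in DESeq2) and by 0.31 at 24 h (adjusted p = 0.0108), and the change of this difference between the time points was not tested. MXI1 stood out in Hs746T, where its median of 62.3 CPM compared with 29.4 in NCI-N87, 17.5 in MKN7 and 17.2 in MKN1, and the difference between MKN7 and MKN1 did not pass (log2 0.03 and -0.05 with SE 0.09, adjusted p = 0.781 and 0.647). MNT was also highest in Hs746T (55.4 CPM against 22.1 to 34.9), where MGA was lowest (37.4 CPM against 77.4 to 99.9). MYCL was low throughout, between 0.760 CPM in NCI-N87 and 6.97 CPM in MKN7. MXD1 medians ran from 15.4 CPM in Hs746T to 32.2 in NCI-N87, and MXD3 medians from 15.5 in NCI-N87 to 29.2 in Hs746T.

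Per kb of exon, where genes can be set against each other, the median MYC level in untreated cells was 165 CPM per kb in MKN7, 126 in NCI-N87, 69.6 in Hs746T and 11.8 in MKN1. MAX, its obligatory partner, stood at 40.9, 15.8, 18.4 and 8.41 CPM per kb in the same order, each below the MYC median of its line. In MKN1 these medians pool the libraries of 4 h with those of 24 h, where MYC was lower, and MYC was not above MAX in every library. The highest MXD level was MXI1 in Hs746T at 13.5 CPM per kb, and MXD4 in MKN1 and Hs746T was 9.92 CPM per kb each. These lengths are the union of all annotated exons, which is longer than a typical transcript.

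Between 4 h and 24 h in culture without treatment, MYC fell in MKN1 from 55.3, 53.7 and 45.1 CPM to 18.7, 19.2 and 25.4 CPM (log2 -1.31, SE 0.23, adjusted p = 3.38e-05). In the same line MAX fell by 0.39 on the log2 scale, and MXD3 (0.79), MYCL (0.54), MNT (0.48), MXI1 (0.42) and MXD4 (0.26) rose, so that 7 of 9 members passed, where 34.1% of all genes did. MKN7 had 5 members passing (16.4% of all genes, and 8 members and 30.9% of genes with the replicate number as a block), among them MYC, which fell by 0.45 on the log2 scale (adjusted p = 0.00816), and -0.35 (adjusted p = 0.172) without the libraries numbered 1. Neither NCI-N87 (0.267% of genes) nor Hs746T (1.48%) had a member that passed in edgeR. At an unadjusted p below 0.05 there were 2 in NCI-N87 and 4 in Hs746T, where 1793 of 19078 and 1930 of 18667 genes had such a p. DESeq2 called 1 and 0. With the block there were 1 (MXD1, adjusted p = 0.00288) and 3, where 4.32% and 10.2% of all genes passed. Summed over the 4 lines, 12 member tests passed (13.3% of all tests of all genes), against 19 with the block (23.4%), 6 and 5 without replicate 2 or 3, and 5 with only the compared groups in the fit. Fits with fewer libraries allow fewer calls for any gene.

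In MKN1 cells EGF raised MYC and lowered MXD3. MYC was between 107 and 145 CPM with EGF for 4 h, against 55.3, 53.7 and 45.1 CPM untreated (128 ± 19.2 against 51.4 ± 5.48, mean ± SD, n = 3), and the groups did not overlap. This was a log2 fold change of 1.32 (SE 0.23, adjusted p = 0.000113). How many of all genes had groups without overlap was not counted, here or below. At 24 h MYC was 53.4, 53.7 and 50.4 CPM against 18.7, 19.2 and 25.4 CPM, and the log2 fold change was 1.34 (SE 0.23, adjusted p = 2.59e-05), again with all treated libraries above all untreated ones. The EGF libraries at 24 h (52.5 ± 1.79 CPM) were near the untreated level of 4 h. Without the libraries numbered 1 the 4 h change was 1.28 with an adjusted p of 0.0509.

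MXD3, an MXD member known from proliferating cells in S phase, moved the other way. It was 9.18, 9.98 and 8.97 CPM with EGF for 4 h and 15.7, 17.6 and 14.1 CPM without (log2 -0.74, SE 0.13, adjusted p = 0.000259). After 24 h it was 11.9, 11.1 and 12.2 CPM against 29.8, 30.7 and 22.8 CPM (log2 -1.22, SE 0.13, adjusted p = 1.56e-08), so the 3 EGF libraries stayed low while the untreated ones were higher than at 4 h. MAX rose slightly at 24 h (log2 0.35, SE 0.08, adjusted p = 0.000897), and MXD4 fell slightly (-0.29, SE 0.10, adjusted p = 0.0185). The MAX value was 0.15 (adjusted p = 0.112) when libraries were scaled by their size alone, and the MXD4 value was -0.24 (adjusted p = 0.19) without the libraries numbered 1 and -0.21 (adjusted p = 0.242) without those numbered 3. With the block, MAX (0.19, adjusted p = 0.0105) and MXD4 (-0.29, adjusted p = 0.00952) also passed at 4 h and MXD1 (-0.35, adjusted p = 0.00307) at 24 h, where 17.0% and 51.1% of all genes passed with it. Members passing were 2 of 9 at 4 h and 4 of 9 at 24 h, where 6.82% and 35.8% of all genes passed, so the share at 24 h is near that of all genes.

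**Figure D1:**
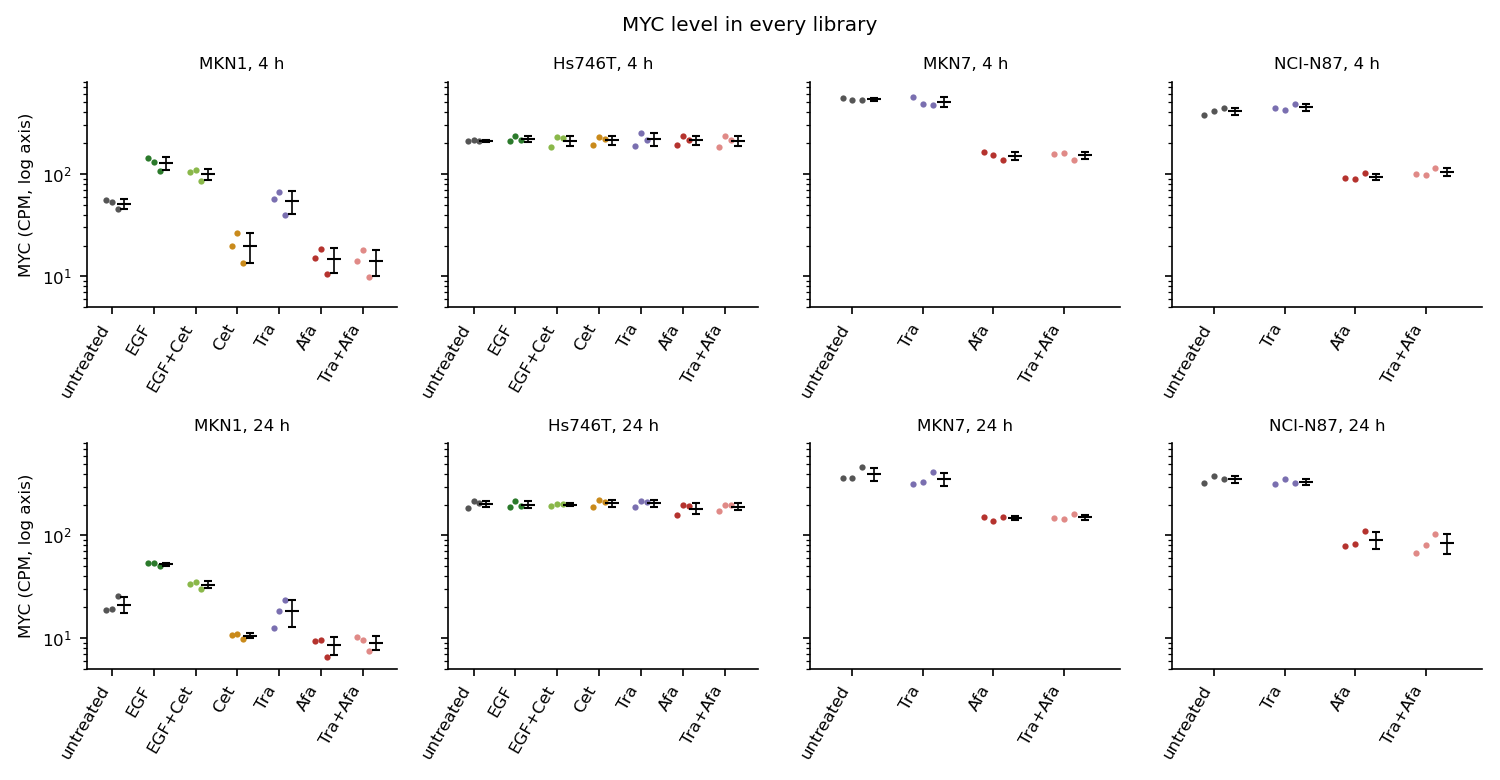
MYC level (CPM, log axis) in every library, by cell line (columns), time point (rows) and treatment; colored points are the 3 replicates and black marks their mean ± SD. In MKN1 the EGF libraries lie between 107 and 145 CPM at 4 h and the afatinib libraries between 10.6 and 18.6 CPM, while the afatinib libraries of Hs746T lie between 157 and 235 CPM.

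Cetuximab alone lowered MYC in MKN1, and cells given EGF and cetuximab together kept more MYC than untreated cells. Cetuximab alone gave 19.7, 26.7 and 13.5 CPM at 4 h (log2 -1.37, SE 0.23, adjusted p = 0.000412) and 10.8, 10.8 and 9.77 CPM at 24 h (log2 -1.03, SE 0.23, adjusted p = 0.00397). All of these lay below the untreated libraries of their time point. With EGF and cetuximab together MYC remained above untreated, at 104, 108 and 85.4 CPM after 4 h (log2 0.96, SE 0.22, adjusted p = 0.0287) and 33.8, 35.1 and 30.1 CPM after 24 h (log2 0.65, SE 0.23, adjusted p = 0.0418). Against EGF alone, MYC in the combination was lower by -0.36 at 4 h (adjusted p = 0.953) and -0.68 at 24 h (adjusted p = 0.195). Neither difference passed, and with the block the 24 h difference did (adjusted p = 0.00264). In the same comparison at 24 h, 1 other member was higher and passed, where 0.646% of all genes passed. With the block 2 members passed, where 7.22% of all genes did. MXD3 rose with cetuximab at 4 h to 22.5, 23.4 and 25.8 CPM (log2 0.59, SE 0.13, adjusted p = 0.011), and at 24 h its change was 0.09 (adjusted p = 0.708). MYCL, at a level near the bottom of the network, rose with cetuximab at 24 h (log2 0.63, SE 0.18, adjusted p = 0.0227).

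Members passing were 2 of 9 with cetuximab at each time point (1.43% and 10.8% of all genes), and 1 and 3 of 9 with EGF and cetuximab (0.717% and 18.6%). The 3 at 24 h were MYC, MAX (0.23, adjusted p = 0.0405) and MXD3 (-0.62, adjusted p = 0.000996). Without the libraries numbered 1, the cetuximab change of MYC was -1.31 (adjusted p = 0.137) at 4 h and -1.15 (adjusted p = 0.0551) at 24 h, and no member passed. Without the libraries numbered 1 or 2, the changes of MYC with EGF and cetuximab were 0.98 and 0.93 at 4 h and 0.56 and 0.54 at 24 h, none passing. The MXD3 change with cetuximab was 0.63 (adjusted p = 0.2) and 0.45 (adjusted p = 0.319) without the libraries numbered 1 or 3, and the MYCL change 0.73 (adjusted p = 0.0609) and 0.50 (adjusted p = 0.431). With the block, MXD3 also passed with EGF and cetuximab at 4 h (-0.45, adjusted p = 0.011) and MXD1 with cetuximab at 24 h (0.24, adjusted p = 0.0387).

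Afatinib lowered MYC in MKN1, MKN7 and NCI-N87 at both time points, and its 3 treated libraries lay below the 3 untreated ones in all 6 cases. The share of all genes separated in this way was not counted, and at 24 h 25.0% of all genes fell in MKN7 and 31.0% in NCI-N87. In NCI-N87 MYC was 374, 416 and 436 CPM untreated and 92.1, 89.3 and 101 CPM after 4 h of afatinib (409 ± 31.8 against 94.3 ± 6.28). The log2 fold change was -2.11 (SE 0.14, adjusted p = 7.64e-10), a 4.32-fold lower level. At 24 h the values were 323, 379 and 355 CPM against 79.5, 82.2 and 110 CPM (log2 -1.99, SE 0.14, adjusted p = 5.02e-11). MKN7 cells went from 550, 523 and 530 CPM to 164, 154 and 137 CPM at 4 h (log2 -1.86, SE 0.11, adjusted p = 4.09e-10). At 24 h they went from 365, 365 and 467 CPM to 152, 139 and 153 CPM (log2 -1.44, SE 0.11, adjusted p = 5.07e-09). In MKN1, which started from a much lower level, MYC was between 10.6 and 18.6 CPM with afatinib at 4 h (mean 14.8 ± 4.03, log2 -1.81, SE 0.23, adjusted p = 2.94e-06) and 9.22, 9.53 and 6.51 CPM at 24 h (log2 -1.34, SE 0.24, adjusted p = 7.72e-05). In bulk samples, fewer cells of a type and less RNA per cell cannot be told apart.

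In Hs746T MYC did not pass under any treatment. It was 190, 235 and 213 CPM with afatinib for 4 h against 208, 215 and 209 CPM (log2 0.05, SE 0.12, adjusted p = 0.977) and 157, 196 and 196 CPM against 186, 215 and 209 CPM at 24 h (log2 -0.16, SE 0.12, adjusted p = 1 after rounding). The treated and untreated ranges overlapped. None of the 9 members passed in the 12 Hs746T comparisons, where 0.0% of all genes passed. No member had an unadjusted p below 0.05 in edgeR, where 125 to 1371 of 18667 genes had such a p, and none passed in DESeq2. With the block, 3 members passed with afatinib at 4 h, MNT (-0.28, adjusted p = 0.00433), MXD3 and MGA, where 18.6% of all genes passed with it, and MYC was not among them. With trastuzumab and afatinib at 4 h, 1 member passed with the block, MNT (-0.27, adjusted p = 0.0379), where 1.67% of all genes did. The lower MNT was not particular to afatinib. At 4 h all MNT libraries with EGF, cetuximab or both also lay below the same 3 untreated libraries, though no member passed there with the block.

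The difference between lines was tested directly. The afatinib effect on MYC differed from that in Hs746T by -2.13 in NCI-N87, -1.83 in MKN7 and -1.81 in MKN1 at 4 h, and by -1.81, -1.28 and -1.17 at 24 h on the log2 scale (largest adjusted p = 0.000771). For MKN1 at 24 h the difference was -0.86 (adjusted p = 0.0673) without the libraries numbered 3. Among the 3 responding lines, MYC passed in 1 comparison, NCI-N87 against MKN1 at 24 h (-0.64, SE 0.24, adjusted p = 0.0349). With the block NCI-N87 and MKN7 also differed at 24 h (-0.55, adjusted p = 0.00121, against -0.53 and 0.0965 without it). At 4 h NCI-N87 and MKN1 differed by -0.32 (SE 0.23, adjusted p = 0.824). The effects of EGF on MYC in MKN1 exceeded those in Hs746T by 1.25 at 4 h and 1.34 at 24 h (adjusted p = 0.000329 and 2.37e-05), and those of cetuximab differed by -1.38 and -1.04 (adjusted p = 0.000188 and 0.0175). Leaving out the libraries numbered 1 gave an adjusted p of 0.0658 for EGF at 4 h, 0.0749 for cetuximab at 4 h and 0.0673 for cetuximab at 24 h, leaving out those numbered 2 gave 0.0583 for EGF at 4 h and 0.266 for cetuximab at 24 h, and leaving out those numbered 3 gave 0.268 for cetuximab at 24 h. Over all 144 tests of a member in 16 comparisons of effects between lines, 33 passed, against 8.82% of all tests of all genes (58 with the block, against 22%), and 18 also had an absolute difference above 1 (4.01% of all).

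No member passed the test with trastuzumab alone. MYC in NCI-N87 was 443, 417 and 481 CPM with trastuzumab at 4 h (log2 0.13, SE 0.13, adjusted p = 1 after rounding) and 319, 359 and 328 CPM at 24 h (log2 -0.09, SE 0.13), and each set overlapped its untreated libraries. In MKN7 the changes of MYC were -0.11 (SE 0.11) and -0.17 (SE 0.11), and in MKN1 0.08 (SE 0.22) and -0.22 (SE 0.23). In each line and at each time 0.0% of all genes passed in edgeR, and neither DESeq2 nor the block called a member. At an unadjusted p below 0.05 there were 1 member in MKN7 at 4 h, 2 in NCI-N87 at 24 h and 0 in the other 6 comparisons. In the named comparisons 661 of 18483 and 786 of 19078 genes had such a p. Adding afatinib to trastuzumab lowered MYC against trastuzumab alone by -2.10 and -2.02 in NCI-N87, -1.74 and -1.24 in MKN7 and -1.96 and -1.04 in MKN1 (4 h and 24 h, adjusted p at most 0.00108), with Hs746T at -0.03 and -0.11. Over the 12 comparisons of a combination with its single agent, 24 of 108 member tests passed, against 14.8% of all tests of all genes.

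**Figure D2:**
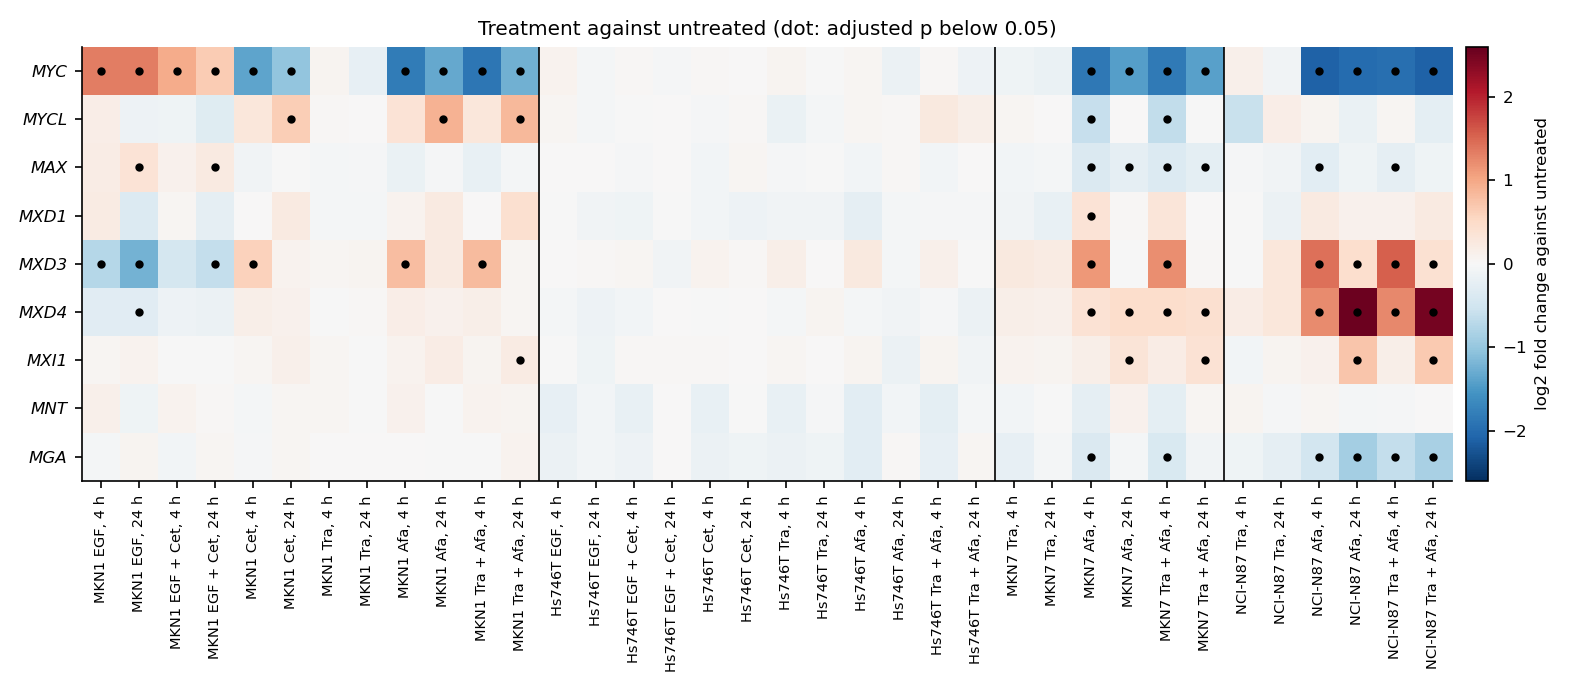
Log2 fold change of each of the 9 members (rows) in each of the 36 comparisons of a treatment with untreated cells (columns, grouped by cell line), red higher and blue lower, with a dot where the adjusted p was below 0.05. MYC carries a dot in 18 columns, MXD3 in 12, MXD4 in 9 and MNT in 0, and no column of Hs746T or of trastuzumab alone has a dot.

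Under afatinib MXD3, MXD4 and MXI1 rose in lines where MYC fell, at different times. MXD3 rose early. In NCI-N87 it went from 12.2, 17.8 and 19.3 CPM to 38.9, 43.9 and 49.8 CPM at 4 h (log2 1.43, SE 0.15, adjusted p = 3.92e-07). In MKN7 it went from 16.6, 17.3 and 15.9 CPM to 36.6, 35.8 and 40.1 CPM (log2 1.14, SE 0.12, adjusted p = 9.8e-07), and in MKN1 from 15.7, 17.6 and 14.1 CPM to 25.4, 27.2 and 30.8 CPM (log2 0.80, SE 0.13, adjusted p = 0.00016). All treated libraries were above all untreated ones in these lines. By 24 h the change was 0.45 in NCI-N87 (adjusted p = 0.011, and 0.0832 or 0.0769 without the libraries numbered 2 or 3), -0.01 in MKN7 (adjusted p = 0.951) and 0.23 in MKN1 (adjusted p = 0.2). The drop in effect from 4 h to 24 h passed in MKN7 (-1.15, SE 0.17, adjusted p = 0.000105) and NCI-N87 (-0.99, SE 0.21, adjusted p = 0.000746). In Hs746T at 4 h MXD3 was 30.0, 41.5 and 33.5 CPM with afatinib against 25.6, 31.6 and 33.5 CPM (log2 0.25, adjusted p = 0.84, and 0.044 with the block). By gene position MXD3 overlaps RAB24 on the same strand and PRELID1 on the other strand, and whether their exons overlap was not examined. Part of its counts may depend on how shared reads were assigned, which the sources used here do not state.

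MXD4 rose most in NCI-N87, and more at 24 h than at 4 h. Its level there was 17.0, 17.7 and 16.2 CPM untreated and 42.7, 39.2 and 36.3 CPM with afatinib at 4 h (log2 1.22, SE 0.13, adjusted p = 9.79e-07). At 24 h it was 22.5, 21.3 and 17.9 CPM untreated and 117, 126 and 129 CPM treated (log2 2.56, SE 0.14, adjusted p = 1.29e-12), the highest group mean of any MXD gene in these data. The increase from 4 h to 24 h passed (1.34, SE 0.19, adjusted p = 1.02e-05). MKN7 had a smaller rise, from 32.2, 30.3 and 31.4 CPM to 44.4, 36.3 and 45.2 CPM at 4 h (log2 0.38, adjusted p = 0.0038, and 0.0836 without the libraries numbered 3) and from 37.1, 29.2 and 31.1 CPM to 45.2, 43.3 and 45.3 CPM at 24 h (log2 0.45, adjusted p = 0.000284). In MKN1 the changes were 0.17 and 0.12 and did not pass. At 24 h the effect in NCI-N87 exceeded that in MKN7 by 2.13, that in MKN1 by 2.46 and that in Hs746T by 2.67 (SE 0.16 each, largest adjusted p = 7.14e-20). MXD4, with the lowest untreated level in NCI-N87 of the 4 lines, thus had its highest level there after treatment.

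MXI1 rose at 24 h. It went from 28.5, 30.4 and 33.7 CPM to 51.1, 49.6 and 54.9 CPM in NCI-N87 (log2 0.72, SE 0.09, adjusted p = 3.54e-07) and from 19.3, 18.9 and 21.7 CPM to 27.0, 25.5 and 23.4 CPM in MKN7 (log2 0.33, SE 0.08, adjusted p = 0.00141, and 0.0838 without the libraries numbered 1). In MKN1 the change was 0.20 (adjusted p = 0.0799, and 0.0135 with the block). At 4 h MXI1 did not pass in any line (log2 0.08 to 0.15), and the growth of the effect between time points passed in NCI-N87 (0.60, SE 0.12, adjusted p = 0.000686). MXD1 passed once, in MKN7 at 4 h, from 22.6, 24.1 and 24.5 CPM to between 27.9 and 34.2 CPM (log2 0.36, SE 0.12, adjusted p = 0.0364). That call was lost without the libraries of any 1 replicate number (adjusted p = 0.0562 to 0.218). With the block MXD1 also passed in NCI-N87 at 4 h (0.24, adjusted p = 0.0489). MXD1 overlaps SNRNP27 on the same strand.

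**Figure D3:**
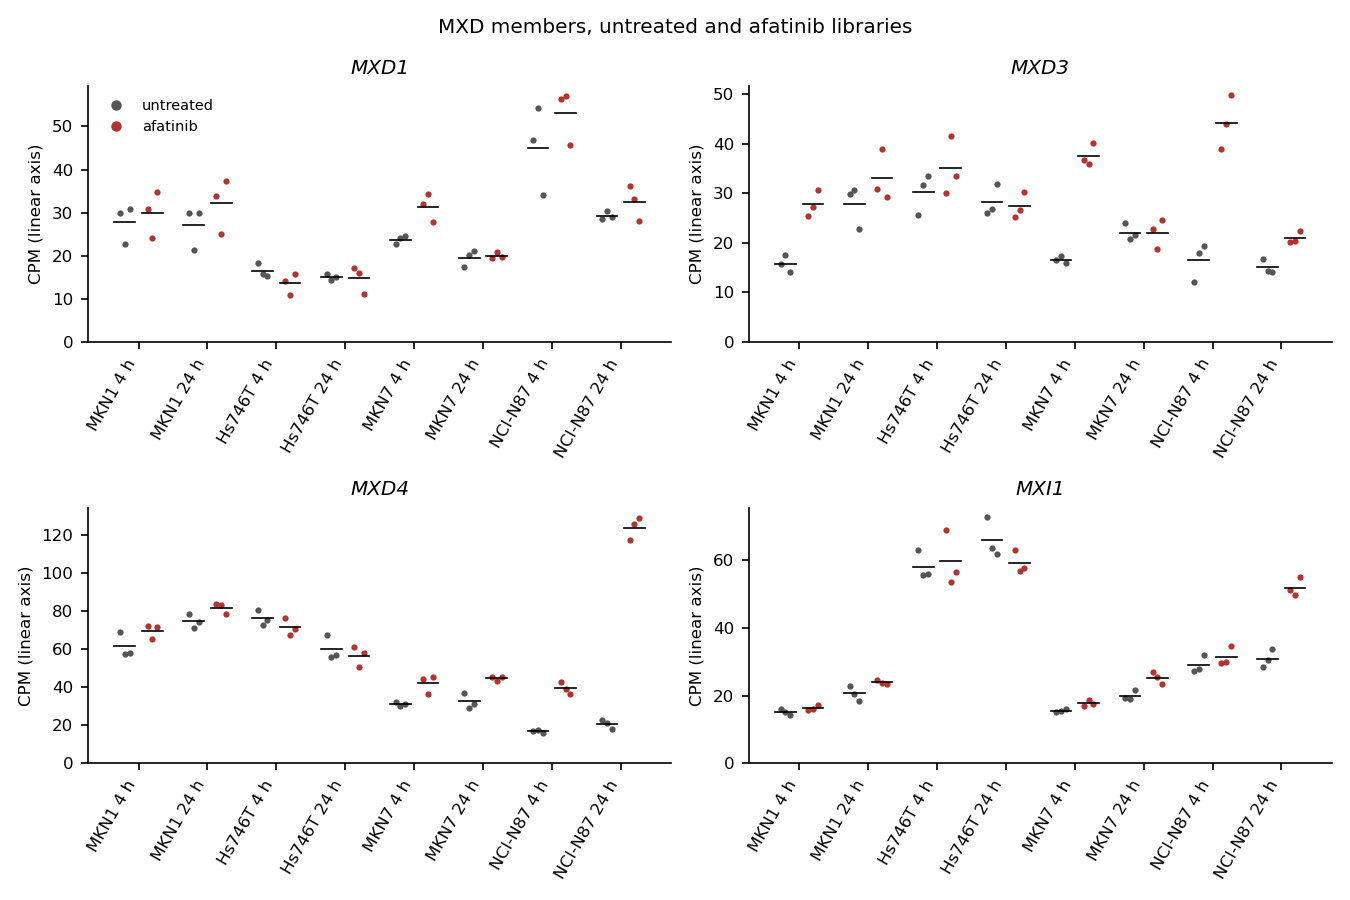
CPM (linear axis) of MXD1, MXD3, MXD4 and MXI1 in untreated (gray) and afatinib (red) libraries of each line and time point; points are replicates and lines their means. MXD3 separates at 4 h in MKN1, MKN7 and NCI-N87, and MXD4 in NCI-N87 reaches 117 to 129 CPM at 24 h against 17.9 to 22.5 CPM untreated.

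MAX and MGA fell in MKN7 and NCI-N87, by less than MYC. With afatinib in MKN1 at 4 h MAX did not pass in edgeR, though all its treated libraries lay below the untreated ones. MAX fell with afatinib in MKN7 from 181, 184 and 188 CPM to 146, 146 and 147 CPM at 4 h (log2 -0.37, SE 0.06, adjusted p = 0.000115) and by 0.24 on the log2 scale at 24 h (adjusted p = 0.00273). In NCI-N87 it fell at 4 h from 71.5, 71.0 and 68.6 CPM to 61.2, 55.4 and 56.7 CPM (log2 -0.28, SE 0.07, adjusted p = 0.00563, and 0.165 without the libraries numbered 2), and at 24 h its change was -0.11 (adjusted p = 0.159). When libraries were scaled by their size alone, MAX in MKN7 at 24 h was -0.12 (adjusted p = 0.0992), and in NCI-N87 with trastuzumab and afatinib at 24 h its sign turned from -0.11 (adjusted p = 0.161) to 0.20 (adjusted p = 0.0145). MAX overlaps FNTB on the opposite strand.

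MGA fell in NCI-N87 from 103, 77.3 and 77.8 CPM to 63.9, 60.6 and 60.6 CPM at 4 h (log2 -0.47, SE 0.11, adjusted p = 0.00455, and 0.093 without the libraries numbered 1) and from 84.5, 91.4 and 94.3 CPM to 51.6, 52.9 and 46.1 CPM at 24 h (log2 -0.88, SE 0.11, adjusted p = 8.11e-07). In MKN7 it fell at 4 h (-0.39, SE 0.09, adjusted p = 0.00365, and 0.106 without the libraries numbered 3), and at 24 h its change was -0.06. MYCL, the other activator, fell in MKN7 at 4 h from 7.16, 8.27 and 8.30 CPM to 5.32, 5.19 and 5.51 CPM (log2 -0.61, SE 0.08, adjusted p = 1.85e-05). In MKN1 it rose at 24 h from 4.76, 2.91 and 3.24 CPM to 7.94, 4.94 and 7.97 CPM (log2 0.91, SE 0.18, adjusted p = 0.000354), and without the libraries numbered 3 this was 0.73 (adjusted p = 0.103). MNT did not pass under afatinib in any line in edgeR, where its changes ran from -0.28 in Hs746T at 4 h to 0.11 in MKN7 at 24 h. With the block it passed in MKN7 at 4 h (-0.22, adjusted p = 0.0223) as well as in Hs746T.

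Counted per comparison with afatinib, 7 of 9 members passed in MKN7 at 4 h (22.2% of all genes) and 4 at 24 h (51.6%). In NCI-N87 5 passed at 4 h (18.2%) and 5 at 24 h (62.5%), at 24 h these shares of 9 were not above those of all genes. In MKN1 2 passed at each time, MYC and MXD3 at 4 h (3.68%) and MYC and MYCL at 24 h (25.6%), and 3 at each time with the block (13.2% and 42.2%). Without the libraries numbered 3, where fewer calls are possible for any gene, the count was 4 in MKN7 at 4 h and 1 in MKN1 at 24 h. Trastuzumab and afatinib together gave 6 and 4 members in MKN7 (23.4% and 51.9%, and 9 at 4 h with the block, where 40.3% of all genes passed), 5 and 5 in NCI-N87 (17.3% and 64.7%) and 2 and 3 in MKN1 (3.95% and 26.8%, and 3 at 4 h with the block, where 13.8% passed). The combination changed MYC by -1.84 and -1.40 in MKN7, -1.97 and -2.11 in NCI-N87 and -1.88 and -1.26 in MKN1 (4 h and 24 h), next to the values for afatinib alone given above. Over all 36 comparisons with untreated cells, 64 of 324 member tests passed, against 12.4% of all tests of all genes (84 with the block, against 19.5%). Of the 64, 18 were MYC, 12 MXD3, 9 MXD4, 8 MAX, 6 MGA, 5 each MYCL and MXI1, and 1 MXD1. Differences of an effect between 4 h and 24 h passed in 5 of 54 tests (10.9% of all tests of all genes), 14 with the block (22.5%), and 2 of these, MXD3 in MKN7 and MXD4 in NCI-N87, also exceeded an absolute difference of 1 (3.79%).

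The level of MYC relative to the MXD genes was described as the ratio of MYC to the sum of MXD1, MXD3, MXD4 and MXI1, each in CPM per kb. It was 12.5, 11.8 and 11.9 in untreated MKN7 at 4 h and 2.47, 2.38 and 2.03 with afatinib, and 7.24, 7.87 and 9.36 against 2.57, 2.50 and 2.63 at 24 h. In NCI-N87 it was 6.89, 6.74 and 7.92 untreated and 1.06, 1.01 and 1.14 with afatinib at 4 h, and 6.29, 7.37 and 6.91 against 0.710, 0.725 and 0.945 at 24 h. In NCI-N87 at 24 h the afatinib libraries therefore had less MYC than summed MXD mRNA per kb of these exon lengths. In MKN1 MYC was below the MXD sum without treatment (0.878, 0.970 and 0.796 at 4 h), above it with EGF for 4 h (2.59, 2.72 and 2.07) and further below with afatinib (0.214, 0.285 and 0.140). At 24 h the MKN1 ratio was 0.234, 0.268 and 0.359 untreated, 0.953, 0.935 and 0.899 with EGF and 0.108, 0.112 and 0.0779 with afatinib, so MYC was below the MXD sum in all of these libraries. In Hs746T the ratio stayed between 1.75 and 2.64 in all 42 libraries. The ratio is of mRNA only and is given as a description. It uses the union of all annotated exons as length (3001 bases for MYC and 7058 for MXD4). Whether MYC lies above or below the MXD sum depends on that choice, and other lengths were not tried.

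**Figure D4:**
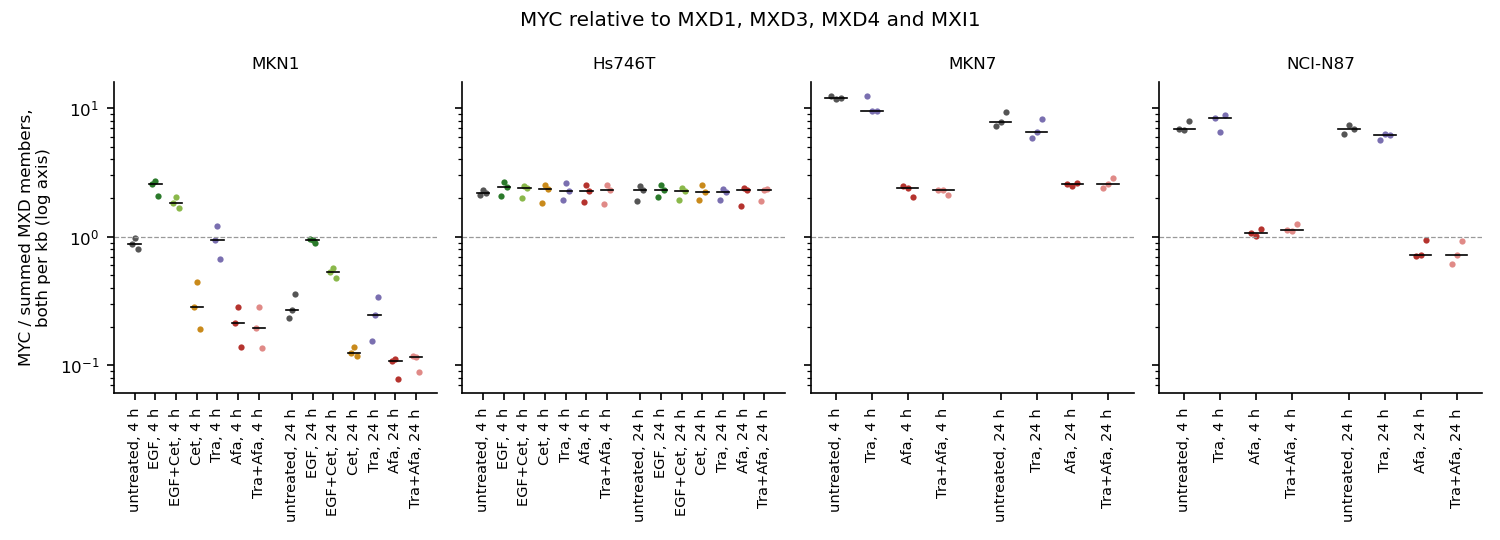
MYC divided by the sum of MXD1, MXD3, MXD4 and MXI1, each in CPM per kb of exon (log axis), in every library; points are replicates, black lines medians and the dashed line marks equal levels, a mark that depends on the exon lengths used. The afatinib libraries of MKN7 lie between 2.03 and 2.63 and those of NCI-N87 between 0.710 and 1.14, below the untreated libraries of the same line.

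Genes activated by MYC were followed as a list of 28, mostly of ribosome biogenesis. Of these, NOP16, PHB and PPAN were listed at 0 in every library, although these genes are used by every growing cell, and after the filter on low counts 25 genes were tested in MKN1 and 24 in each of the other lines (without CCND2 in MKN7 and NCI-N87 and without TERT in Hs746T). With afatinib in NCI-N87, 14 of 24 fell at 4 h (median log2 -0.44, 9.1% of all genes fell) and 24 of 24 at 24 h (median -1.82, 31.0% of all genes fell), 21 of them by more than 1. In MKN7 14 of 24 fell at 4 h (median -0.38, 12.1% of all genes) and 22 at 24 h (median -0.86, 25.0%). The median over all genes tested was between 0.01 and 0.04 in these 4 comparisons. In MKN1 0 of 25 passed at 4 h (8 fell with the block, where 7.63% of all genes did) and 18 fell at 24 h (median -0.50, 13.3% of all genes fell), and in Hs746T 0 of 24 passed at either time (medians 0.05 and 0.01). The 4 h counts were 8 and 4 in NCI-N87 without the libraries numbered 1 or 2 and 6 in MKN7 without those numbered 1. With fewer libraries fewer calls are possible for any gene, and the share of all genes in those fits is not given here.

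In both NCI-N87 and MKN7, 2 genes of the list had fallen by more than 1 at 4 h. RRS1, a ribosome assembly factor, fell by 1.43 and 1.27 on the log2 scale (adjusted p = 7.16e-06 and 9.07e-07), and POLR1B, a subunit of RNA polymerase I, by 1.17 and 1.04 (adjusted p = 9.79e-09 and 2.97e-07). At 24 h TERT, the catalytic subunit of telomerase, had the largest decrease in each of the 3 lines (-4.46 in NCI-N87, -1.85 in MKN7 and -1.22 in MKN1, adjusted p at most 5.42e-07). SRM (spermidine synthase, -2.82 and -1.19) and ODC1 (ornithine decarboxylase, -2.29 and -1.29), both enzymes of polyamine synthesis, followed in NCI-N87 and MKN7. E2F1 fell by 2.41 and LDHA by 2.03 on the log2 scale in NCI-N87 at 24 h, and their changes at 4 h were 0.10 and -0.25 and did not pass.

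In MKN1 the same list rose with EGF at 24 h, where 19 of 25 passed (median 0.62, 17.3% of all genes rose), and fell with cetuximab, where 17 of 25 passed (median -0.42, 5.91% of all genes fell). At 4 h, when MYC itself passed, 1 rose with EGF (SLC16A1, a lactate transporter, 0.32, adjusted p = 0.0052) and 0 passed with cetuximab. TERT (1.31, adjusted p = 1.23e-08), MRTO4 (0.93), ODC1 (0.92) and SRM (0.88) rose most with EGF at 24 h. With cetuximab at 24 h TERT (-0.86), ODC1 (-0.73), IPO4 (-0.69) and SRM (-0.66) fell most. With EGF and cetuximab together 18 of 25 rose at 24 h (median 0.47, 9.17% of all genes rose). The list also fell in untreated MKN1 between 4 h and 24 h (18 of 25, median -0.53, 16.4% of all genes fell) and in MKN7 (12 of 24, median -0.34, 9.43%). Without the libraries numbered 3, where fewer calls are possible for any gene, the cetuximab count was 5 and the afatinib count of MKN1 at 24 h was 11.

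**Figure D5:**
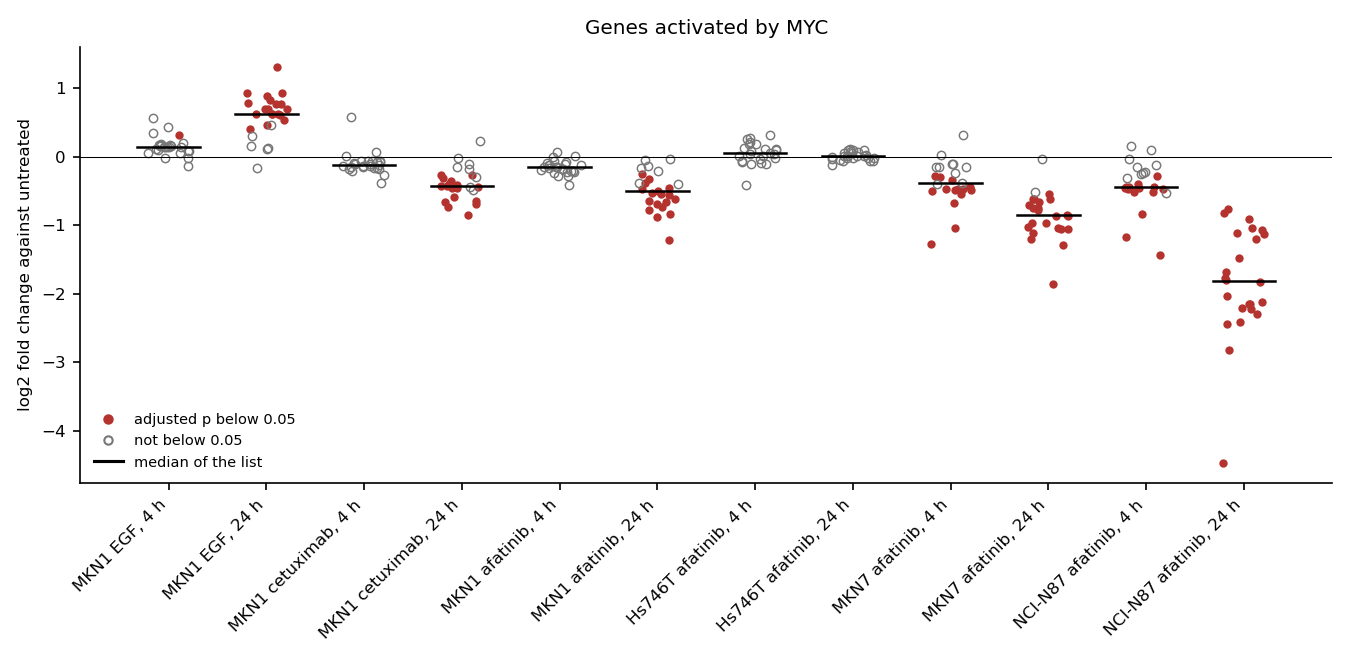
Log2 fold change against untreated cells of the genes activated by MYC, each point a gene, filled red where the adjusted p was below 0.05, with the median of the list as a black line. The median falls to -1.82 in NCI-N87 and -0.86 in MKN7 after 24 h of afatinib and lies at 0.62 in MKN1 after 24 h of EGF, while no gene of the list passed with afatinib in Hs746T.

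The CACGTG E-box was in 11 of 28 RefSeq promoters found for the activated genes (39.3%, 11 of 22 genes), compared with 7.26% of all promoters. This is a description of letters in a 300-base window.

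Genes repressed by MYC, a list of 7 of which CDKN2B was listed at 0 in every library, had members that rose and members that fell. CDKN1C, a cyclin-dependent kinase inhibitor, rose with afatinib by 1.99 and 2.79 in NCI-N87 and 2.05 and 2.44 in MKN7 (4 h and 24 h, largest adjusted p = 5.66e-07). CDKN1A, another inhibitor of the same family, fell by 0.45 and 0.86 on the log2 scale in NCI-N87 and by 1.49 and 1.09 in MKN7, and rose with EGF in MKN1 at 4 h (1.75, adjusted p = 5.99e-08). KLF4, a transcription factor of differentiated epithelium, rose in NCI-N87 (0.54 and 1.19) and fell in MKN7 (-0.74 and -1.31). Over the list, 3 of 6 tested genes rose and 3 fell in NCI-N87 at 24 h, and 2 rose and 4 fell in MKN7, where 62.5% and 51.6% of all genes passed in either direction.

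Cofactors and relatives of the network formed a list of 18, of which MYCBP was listed at 0 in all libraries. In NCI-N87 after 24 h of afatinib 10 of 17 fell (31.0% of all genes fell), led by RUVBL1 (-1.13) and RUVBL2 (-1.12), helicases of the TIP60 complex that MYC recruits. MLX, the MAX-like partner of the MondoA branch, fell by 0.76 on the log2 scale and KAT2A, a histone acetyltransferase, by 0.69. In MKN7 at 24 h 2 rose and 8 fell (26.6% of all genes rose and 25.0% fell), with RUVBL1 at -0.90 and MLXIPL at 0.73. In MKN1 with EGF at 24 h RUVBL1 rose (0.69) and MLXIPL fell (-1.02, adjusted p = 0.000267). At 4 h of afatinib 1 rose and 2 fell in NCI-N87 (9.06% of all genes rose and 9.1% fell). Of 8 genes for MYC protein turnover, 6 fell in NCI-N87 at 24 h of afatinib (31.0% of all genes fell), with CIP2A, an inhibitor of the phosphatase that destabilizes MYC, at -1.64 and SKP2, a ubiquitin ligase subunit, at -1.19, and 3 fell in each of MKN7 and MKN1 (SKP2, AURKA and CIP2A in both, where 25.0% and 13.3% of all genes fell).

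As a check of the treatment, 5 targets of MAPK signaling (DUSP6, SPRY2, SPRY4, EGR1 and FOS) were followed. With afatinib all 5 fell in MKN1 at 4 h and 24 h (2.41% and 13.3% of all genes fell) and in NCI-N87 (9.1% and 31.0%). In MKN7 4 of 5 fell at 4 h and all 5 at 24 h (12.1% and 25.0%), and in Hs746T 0 of 5 passed (0.0%). With cetuximab in MKN1 all 5 fell at both times (1.15% and 5.91%). With EGF in MKN1 DUSP6, SPRY2 and SPRY4 rose at 4 h (4.37% of all genes rose), and EGR1 and FOS did not pass. At 24 h DUSP6 and SPRY4 rose (17.3%), FOS fell (-0.83, adjusted p = 0.000888), and SPRY2 and EGR1 did not pass.

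Over the 44 conditions, centred on the mean of each cell line, the genes whose pattern was most like that of MYC among 15748 were LIF (Pearson r = 0.986), SLC20A1 (0.976), MAFF (0.972), DUSP4 (0.963) and the identifier ENSG00000266088 (0.962). The most opposite were ELF1 (-0.948), IGIP (-0.945), RBM43 (-0.937), IL15 (-0.936) and UNK (-0.935). The points share libraries, untreated controls and scaling, and the correlations are given as a description. Within the network, MYC correlated with MAX (0.84), MXD3 (-0.83), MXD4 (-0.64) and MXI1 (-0.61), and MXD4 with MGA (-0.82).

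For the other members the most similar genes differed. MXD3 was most like CDKN2C (0.956), RBM23 and C21orf58, and MXD4 most like PIK3IP1 (0.953), BBS12 and ZFTRAF1. MXI1 had C12orf42 (0.967), SNAP23 and MAPK3, and MAX had SLC25A37 (0.952), PMM2 and FBXW7. MGA was most like CBX6 (0.918), MNT like SBF2 (0.919), MYCL like JADE2 (0.847) and MXD1 like GRIN2A (0.839).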

How the data were processed

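RNA was measured by RNA-seq (directional poly(A) libraries) in 3 libraries for each of 44 conditions of 4 gastric cancer cell lines. The authors trimmed reads with Trim Galore and aligned them with STAR to hg38, and deposited raw counts per gene. Versions, the counting program, its annotation and its use of strand are not given in the sources used here. Samples were grouped by line, treatment and time from the labels, which call the replicates biological.

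Counts were tested with edgeR 4.0.16 (R 4.3.3; TMM scaling, filterByExpr with a minimum count of 10, quasi-likelihood test, Benjamini-Hochberg adjustment over all genes). A fit per cell line gave the treatment and time effects, and a fit of all libraries gave the differences between lines. "Passed", "rose" and "fell" stand for an adjusted p below 0.05, and "regulated" for an absolute log2 fold change above 1 in addition. DESeq2 1.42.0, scaling by library size, other filters, only the compared groups, a replicate block and leaving out each replicate were alternatives. In 51 of 52 comparisons within a line every same-numbered pair of libraries deviated together (r above 0.1, mean r 0.357), so the labels' numbers pair the samples within a line. Pairing between lines was not checked. The sample descriptions number the libraries in 2 series (65 and 67 libraries). Libraries of replicate 2 lie in different series between MKN1 and MKN7, and in Hs746T between 4 h and 24 h. The main tests do not use this pairing, and the replicate block does. Over the treatment comparisons 12.4% of all tests of all genes passed without the block and 19.5% with it. A result that did not pass in the main tests can thus pass with the block. On simulated counts of MKN7 with afatinib at 4 h (18483 genes), 99% of 100 genes changed by 1.5 and 58% of 100 changed by 0.5 on the log2 scale were recovered, with 14 unchanged genes passing. For the simulated difference of the effect between 24 h and 4 h, 93% and 13% were recovered. The simulated counts held no replicate effect and only 200 changed genes, unlike the data.

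Named genes are the 9 members, genes of the lists, the drug targets and the genes most correlated with each member over the 44 conditions. The members and lists were chosen with earlier results of these data known. Exon lengths and gene overlaps were from GENCODE 29. Intervals and tests cover the spread between these replicates.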

Additional observations from a re-analysis of the deposited data

Results flagged for a closer look

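Treatment effects on members that differed between lines or between time points, with an adjusted p below 0.05 in edgeR and an absolute log2 difference above 1, are given here as values. The effect of afatinib on MYC differed from that in Hs746T by -2.13, -1.83 and -1.81 at 4 h and by -1.81, -1.28 and -1.17 at 24 h in NCI-N87, MKN7 and MKN1. The effect of EGF on MYC in MKN1 differed from that in Hs746T by 1.25 at 4 h and 1.34 at 24 h, and that of cetuximab by -1.38 and -1.04. For MYCL the afatinib effect at 24 h in NCI-N87 differed from that in MKN1 by -1.07. For MXD3 the afatinib effect at 4 h in NCI-N87 differed from that in Hs746T by 1.22, the EGF effect at 24 h in MKN1 from that in Hs746T by -1.29, and the afatinib effect in MKN7 at 24 h from that at 4 h by -1.15. For MXD4 the afatinib effect in NCI-N87 differed from that in MKN1 by 1.03 and from that in Hs746T by 1.31 at 4 h, and from those in MKN7, MKN1 and Hs746T by 2.13, 2.46 and 2.67 at 24 h. In NCI-N87 the MXD4 effect at 24 h differed from that at 4 h by 1.34.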

How the results depend on the processing

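With the replicate block, members passing were 4 for EGF in MKN1 at 4 h (2 without), 3 for afatinib in Hs746T at 4 h (0 without) and 19 over the 4 time comparisons (12 without), and 8 genes activated by MYC fell with afatinib in MKN1 at 4 h (0 without). With only the compared groups in the fit, 1 member passed for cetuximab in MKN1 at each time (2 in all groups) and 5 over the time comparisons. Leaving out each replicate number in turn gave a MYC change in MKN1 of 1.28 to 1.36 for EGF at 4 h, -1.60 to -1.25 for cetuximab at 4 h and -1.15 to -0.84 for cetuximab at 24 h, and each call was lost without replicate 1. The members passing then ranged from 1 to 2 for EGF at 4 h, 0 to 2 for cetuximab at 4 h, 0 to 2 for cetuximab at 24 h and 1 to 2 for afatinib at 24 h in MKN1, from 4 to 6 for afatinib at 4 h in MKN7, and from 5 to 8 over the time comparisons. The genes activated by MYC that fell ranged from 5 to 14 for cetuximab and 11 to 21 for afatinib at 24 h in MKN1, and at 4 h of afatinib from 6 to 14 in MKN7 and 4 to 12 in NCI-N87.

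The total of member tests passing over the 36 treatment comparisons was 64, and ran from 47 (without replicate 1) to 84 (replicate block). Scaling by library size alone shifted the median of all genes by 0.26 for afatinib in NCI-N87 at 24 h and by -0.20 for EGF in MKN1 at 24 h, and turned the sign of MAX in NCI-N87 at 24 h for trastuzumab and afatinib, to 0.20 against untreated and 0.27 against trastuzumab. Of the other values of members under these alternatives beside those named in the text, 3110 kept their direction and side of the threshold, 69 newly passed and 59 no longer passed. With fewer replicates fewer calls are possible by construction, for all genes as for members, and the other causes were not tested. The share of all genes passing is given only for the main fit and the block, so member counts of the other fits have no such share beside them. At 20 to 452 counts per library MYCL is the member least well measured.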
